A study of Mus musculus with 32 samples.

Results

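The mouse array used in this series carries 16194 distinct probes that are named by a genomic interval and a strand letter instead of a gene. They were taken as every non-control probe whose systematic name begins with a chromosome or with "lincRNA:", and they make up 29.1% of the 55681 distinct non-control probes. The names give 4610 combinations of interval and strand, which lie in 3543 intervals and, after overlapping intervals were merged, in 2226 loci on 20 chromosomes. An interval and strand had 1 to 10 probes, with a median of 3. The median interval was 7304 bases long, and 1 interval spanned more than 1 Mb. Forward-strand names held 8171 of the probes and reverse-strand names 8010, and 13 probes of 3 names had no strand letter.

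RNA was measured in 4 groups on a 129+Ter/SvJcl background at 3 weeks of age. Superior mesenteric ganglia (SMG), which are abdominal ganglia of the sympathetic system, came from 8 wild-type samples and from 8 samples of TH-MYCN hemizygotes (TH-MYCN+/-), which carry human MYCN driven by the tyrosine hydroxylase promoter. Spheres, which are floating clusters of cultured cells, came from TH-MYCN hemizygotes too, as 8 primary cultures kept for 8 days and as 4 cultures that had been passaged 5 times. Each passaged culture was hybridised to 2 arrays, which were averaged, so n = 4. The labels do not say which ganglia, cultures or animals belong together, so p-values measure the spread between these samples, and the transgene's own RNA was not analysed here.

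Long intergenic noncoding RNAs (lincRNAs) are transcripts from outside protein-coding genes, often spliced and often restricted to particular tissues or stages. Some are hosts of small RNAs and some act on chromatin or on neighbouring genes, while for most no function is known. An interval probe on an array reports RNA of 1 strand in 1 window, which may come from a lincRNA, from an unannotated end of a gene or from other transcription through that window. The array was designed on mouse build mm9, and every position given here is in that build. No sequence and no neighbouring gene is given, since no genome or annotation of that build was used here.

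Levels are log2 processed signals minus the array's 75th percentile, so a level of 0 equals the 75th percentile of all probes on that array. A probe counts as detected when Agilent's software marked it well above background. The signal at that percentile ranged over 523 to 989 for wild-type SMG, 840 to 1358 for TH-MYCN SMG, 464 to 564 for the primary and 323 to 539 for the passaged spheres. In bulk RNA, fewer cells of a type and less RNA per cell cannot be told apart. All 8 sympathetic neuron markers, among them Th and Dbh, enzymes of noradrenaline synthesis, were detected in every group, with a summed level of 10.17 to 10.60 in wild-type SMG, 9.35 to 10.09 in TH-MYCN SMG, 8.68 to 9.01 in primary spheres and 8.97 to 9.17 in passaged spheres.

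Interval probes were detected less often than the other probes of the same arrays. The share detected per array was 42.0% to 49.6% in wild-type SMG, 40.2% to 47.9% in TH-MYCN SMG, 41.7% to 46.9% in primary and 31.8% to 39.0% in passaged spheres. For all other probes the shares were 66.6% to 71.1%, 65.3% to 69.5%, 62.2% to 64.4% and 55.3% to 59.4%. The 4 arrays of passaged cultures 3 and 4 lay at 31.8% to 35.8%, below the 38.2% to 39.0% of cultures 1 and 2. Those 4 arrays were also dimmer, and the part of brightness in this was not tested.

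**Figure D1:**
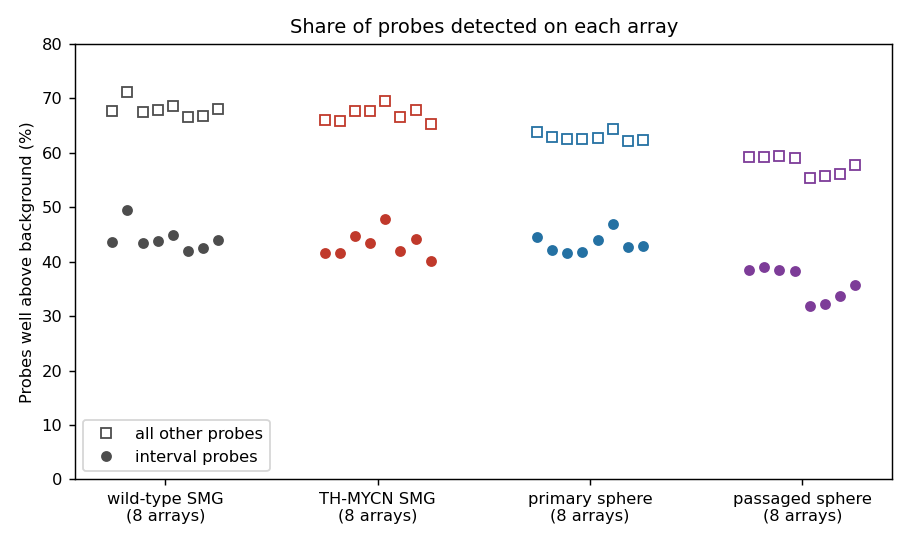
Share of probes well above background on each array, in percent, for the 16194 interval probes (filled circles) and all other non-control probes (open squares), by group, 1 point per array. The interval probes sit below the other probes on every array, and the lowest shares are on the passaged sphere arrays, at 31.8% to 39.0%.

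A core of 4023 interval probes (24.8%) was detected on all 32 arrays, against 50.7% of the other probes, and 4344 (26.8%) were detected on none. On every array of the group, 5749 were detected in wild-type SMG, 5520 in TH-MYCN SMG, 5822 in primary spheres and 4453 in passaged spheres. Detection limited to a single group was rare. Only 1 interval probe was detected on every wild-type SMG array and no other (chr5:112205091-112240992, forward), 10 on every TH-MYCN SMG array and no other, 1 on every primary sphere array and no other (chr10:8606683-8665783, forward) and 0 on every passaged sphere array and no other. Of the other probes 4, 15, 6 and 0 had these patterns. As shares these were 0.00618%, 0.0618%, 0.00618% and 0% of the interval probes. For the other probes they were 0.0101%, 0.0380%, 0.0152% and 0%. The commonest all-or-none pattern of those counted was detection on every SMG array of both genotypes and on no sphere array. It held for 99 interval probes of 67 names (0.611%), against 755 of the other probes (1.91%). The opposite pattern, every sphere array and no SMG array, held for 3 interval probes (0.0185%) and for 4 other probes (0.0101%). The 3 were of the forward strands of chr5:74489084-74491430 and chr8:59994074-60002058. A further 25 interval probes of 19 names were detected on every array of the 3 TH-MYCN groups and on no wild-type array (0.154%), against 80 of the other probes (0.203%).

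The first comparison asks whether the ganglion with the MYCN transgene differs from the wild-type ganglion in these transcripts. Of 7891 interval probes tested, 4289 were called at an adjusted p under 0.05 (limma, Benjamini-Hochberg over all 35775 probes tested), 2035 higher and 2254 lower in TH-MYCN SMG. Of all probes tested, 60.5% were called, 23.6% higher and 36.9% lower. Both genotypes were on each of 2 slides, and within slide 1 3121 interval probes were called and within slide 2 3548. The median difference was -0.14 over the tested interval probes and -0.17 over all tested probes, and 4109 of the interval probes lay above the latter. With no filter on dim probes these medians were 0.04 and -0.03. The split depends on the scaling: with the medians of the groups set equal 2528 were higher and 1318 lower, and with normexp background correction 788 were higher and 3836 lower. The split of all tested probes moved too, to 11224 higher and 8614 lower with equal medians and to 5491 and 16435 with normexp. Large rises outnumbered large falls, with 812 interval probes at least 2-fold higher and 324 at least 2-fold lower, where 8.48% and 5.38% of all tested probes were. Without TH-MYCN SMG 8 the second count was 186, and without TH-MYCN SMG 4 it was 453. With normexp the counts were 237 and 77 and with equal medians 994 and 112, and over all tested probes 1509 and 620, and 3765 and 713. With at least 2 probes past 2-fold on the same interval and strand, 189 names were higher and 51 lower, against 49 and 10 with normexp and 235 and 12 with equal medians.

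Several intervals rose with every one of their probes. The forward strand of chr2:115900355-115900904 has 3 probes, and in 1 of them wild-type SMG levels had a low of -7.00, a median of -5.61 and a high of -4.85, while TH-MYCN SMG levels ran from -2.11 over a median of 0.64 to 1.68. No TH-MYCN SMG sample overlapped a wild-type one, and the difference was 6.05 (SE 0.45, n = 8 and 8, adjusted p = 1.68e-08 by limma). Of the 8 wild-type SMG arrays 3 detected this probe, so the size rests in part on undetected signals. The other probes of this interval differed by 5.90 and 5.15, and 7 and 1 of the 8 wild-type SMG arrays detected them.

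A second such interval was the reverse strand of chr17:34018371-34019394. A probe of it was detected on no wild-type SMG array, where it lay between -6.22 and -5.38, and on all 8 TH-MYCN SMG arrays, where it lay between -2.95 and 0.92 with a median of -0.74. It was at least 31.0-fold higher in TH-MYCN SMG, a bound taken against the lowest signal that counts as well above background on each wild-type array (fitted difference 5.08, SE 0.37, adjusted p = 1.27e-08 by limma). The other probes of the name had fitted differences of 4.76 and 5.31, the latter in a probe that no wild-type SMG array detected.

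None of the wild-type SMG arrays detected any of the 5 probes of the reverse strand of chr19:59498190-59531390. The probe with the largest difference had wild-type SMG levels from -8.16 to -5.14, with a median of -7.51, and TH-MYCN SMG levels from -3.15 to -1.16, with a median of -1.60. It was at least 15.1-fold higher (fitted difference 5.46, SE 0.36, adjusted p = 4.24e-09 by limma), and the other 4 probes differed by 3.52 to 4.71. In the spheres all 5 probes were higher again, as described below. The forward strand of chr7:86662963-86663649 was at least 14.4-fold higher by 1 probe. Another of its probes, also detected on no wild-type SMG array, had a fitted rise of 5.53, while the last differed by 0.01.

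**Figure D2:**
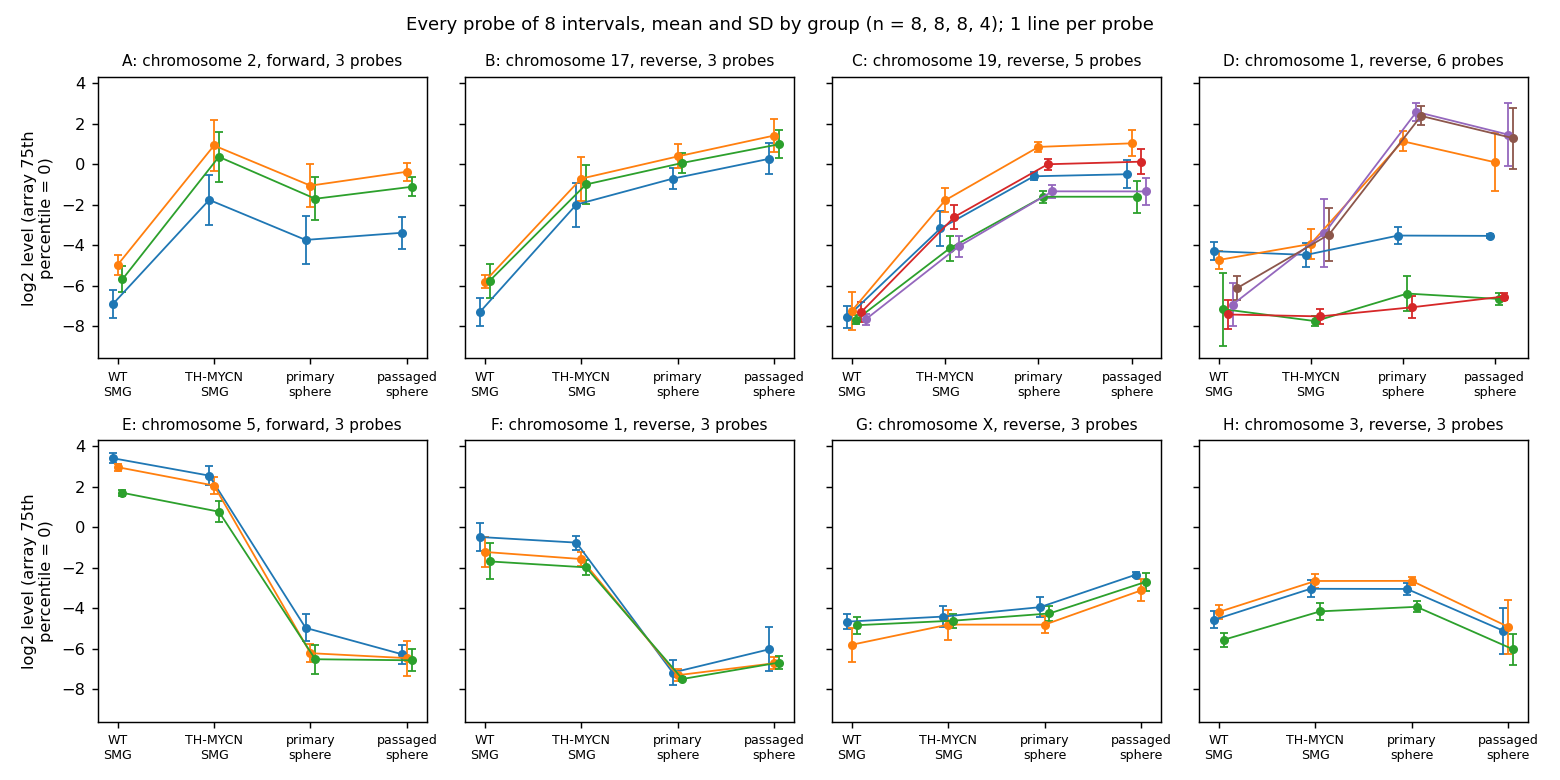
Mean level and SD of every probe of 8 intervals in wild-type SMG, TH-MYCN SMG, primary spheres and passaged spheres (n = 8, 8, 8 and 4), on a log2 scale where 0 is the array's 75th percentile, with 1 line per probe. Panels A to C show the intervals of chromosomes 2, 17 and 19 that rose in TH-MYCN SMG, D an interval of chromosome 1 that rose in spheres with 4 of its 6 probes, E and F intervals of chromosomes 5 and 1 that fell in spheres, G and H intervals of chromosomes X and 3 that differed between passaged and primary spheres.

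Most of the other largest rises rested on 1 probe. The largest fitted rise was that of 1 of 5 probes of the reverse strand of chr5:120269342-120279542, which only 3 of the 8 wild-type SMG arrays detected. Its wild-type SMG levels ran from -8.09 to -4.71 with a median of -6.36, its TH-MYCN SMG levels from -1.83 to 2.49 with a median of 0.13, and the groups did not overlap (difference 6.32, SE 0.59, adjusted p = 2.88e-07 by limma). The 2 other probes tested for this name differed by -0.41 and -0.17 and were not called. A probe of the forward strand of chr2:151343784-151344246 rose by 5.99 while the other tested probe of that name differed by 0.30. A probe of the reverse strand of chr10:62812866-62831016 was at least 24.4-fold higher and a probe of the reverse strand of chr8:26428975-26490975 at least 13.1-fold higher, and no other probe of either name passed the detection filter. A probe of the reverse strand of chr3:106858397-106896812 rose by 6.07, also with no other tested probe. A probe of the forward strand of chr3:37543523-37613073 rose by 5.75, although the other tested probes of the name differed by -0.40 and -1.68 and 1 of these was called lower. On the reverse strand of chr4:98943050-98959998 a probe rose by 6.26 and the 1 other tested probe by 3.44.

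Altogether 42 interval probes of 38 names had a fitted rise of at least 5, a threshold chosen after the values were seen. In 13 of these no wild-type SMG array detected the probe, so the fitted value is no measured size, and their lower bounds ran from 3.06 to 4.95, all under 5. They lay on 18 chromosomes. For 14 of them another probe of the same interval and strand was called higher too, for 15 other probes were tested and none was, and for 13 no other probe was tested. The 131 other probes of these names differed by a median of 0.09, 119 of them by less than 1, and 67 were detected on no TH-MYCN SMG array. All 42 had their lowest TH-MYCN SMG level in sample 4, and 34 had their highest in sample 2.

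The sphere levels separated these 42 into sets, again looked at after the values were seen. In 31 members, from 31 names on 17 chromosomes, the primary sphere mean lay within 1 of the wild-type SMG mean. The median of their group means was -4.44 in wild-type SMG, 0.96 in TH-MYCN SMG, -4.38 in primary spheres and -3.98 in passaged spheres. The gap between TH-MYCN SMG and both wild-type SMG and primary spheres follows from how these members were chosen. All 31 were highest in TH-MYCN SMG 2, where their median level was 3.24, and lowest in TH-MYCN SMG 4, where it was -0.75, and in the other TH-MYCN SMG samples it lay between 0.32 and 1.40. Only 4 of the 31 had another probe of the same name called higher. In the 11 others, of 7 names, the median of the group means was -5.94 in wild-type SMG, -0.90 in TH-MYCN SMG, -1.06 in primary spheres and -0.38 in passaged spheres, 3 were highest in TH-MYCN SMG 2, and 10 had another probe called higher. The summed level of the 8 cell division markers was highest in TH-MYCN SMG 2 too, at 6.83, in a group that ran from 4.76. That of the 7 macrophage markers was highest there as well, at 5.66, in a group that ran from 4.67. The part of either list in the interval levels was not tested.

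**Figure D3:**
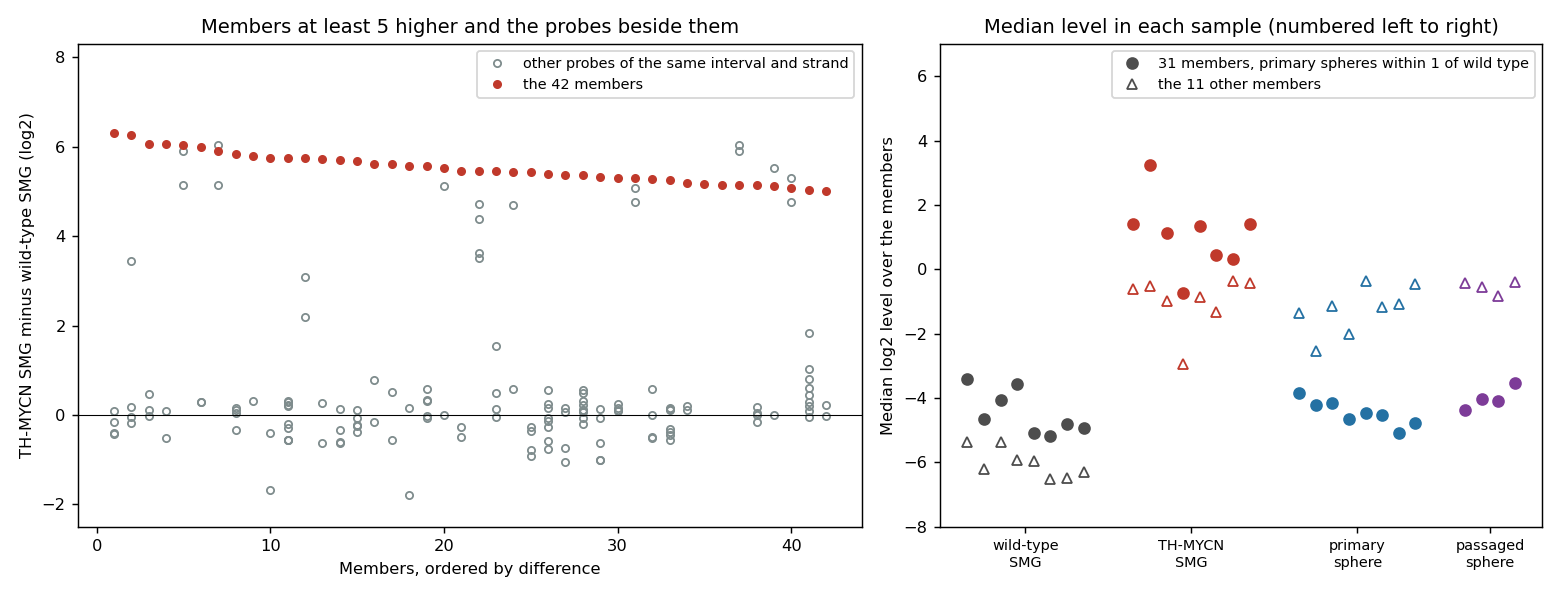
Left, log2 difference between TH-MYCN SMG and wild-type SMG for the 42 interval probes with a fitted rise of at least 5 (filled) and for the other probes of the same interval and strand (open), ordered by difference. Right, median log2 level in each sample, numbered left to right within a group, of the 31 members whose primary sphere mean lies within 1 of the wild-type mean (circles) and of the 11 others (triangles). Most open points lie near 0. The choice of the members makes the circles higher in TH-MYCN SMG than in wild-type SMG and primary spheres. Not used in that choice were the passaged spheres, where the circles are low, and the order of samples within TH-MYCN SMG, where sample 2 is highest.

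Falls in TH-MYCN SMG were smaller. The largest was 1 of 3 probes of the forward strand of chr17:32229024-32229663, with wild-type SMG levels from -4.20 to -2.42 (median -3.60) and TH-MYCN SMG levels from -7.43 to -4.87 (median -6.18). The groups did not overlap (fitted difference -2.67, SE 0.36, adjusted p = 1.83e-05 by limma). No detected probe of any TH-MYCN SMG array lay below -6.15, so -2.67 is no measured size. The 1 other tested probe of the name differed by -0.61 without being called. The reverse strand of chr5:52998788-53010250 fell by 2.00, that of chr11:97457180-97487074 by 1.87 and that of chr2:108456668-108532418 by 1.78, each by 1 called probe. Support from another called probe was present for the forward strand of chr11:87841800-87858725, with -1.74 and -1.09, and for that of chr7:77555482-77634858, with -1.62, -0.91 and -0.71. Probes of the reverse strand of chr13:98513868-98517366 of opposite direction were called, with 1 at -1.78 and 1 at 5.57. The latter was detected on no wild-type SMG array, so 5.57 is no measured size. Only 4 interval probes (0.0247%) went from detection on all wild-type arrays to none of the TH-MYCN SMG arrays, with a largest bound of 1.71-fold. Of the other probes 10 did (0.0253%). In the other direction there were 55 interval probes (0.340%) and 134 of the other probes (0.339%).

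Markers of other cell types differed between these groups too. All 8 cell division markers were higher in TH-MYCN SMG and so were all 7 measured macrophage markers, while 7 of 8 glial, 6 of 7 fibroblast, 5 of 6 endothelial and 5 of 5 smooth muscle markers were lower. Summed glial levels were 6.87 to 7.16 in wild-type SMG and 5.77 to 6.34 in TH-MYCN SMG, and summed fibroblast levels 8.12 to 8.69 and 7.46 to 7.76. Of the neuron markers 1 of 8 was higher and 5 were lower. The part of these cell types in the interval levels was not tested.

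Neighbouring intervals were grouped into runs. With intervals joined when less than 100 kb apart, 373 runs held at least 3 called members in at least 2 intervals, and in 72 of these all called members were higher, in 119 all were lower and in 182 both occurred. Members of a run can report the same transcript and are not independent.

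The run with the most members called higher was chr12:110653148-111080561, with 14 intervals and 83 interval probes. Distal mouse chromosome 12 is known for the imprinted Dlk1-Meg3 cluster, whose maternal copy makes long noncoding RNAs that host many small RNAs, and whether the run overlaps it was not checked against an annotation of this build. Of 65 members tested, 59 were higher in TH-MYCN SMG and 1 was lower, and those called higher had a median difference of 0.86, or 0.80 with the 4 members that no wild-type array detected at their bounds. With normexp background correction 32 were higher and 3 lower. A forward probe of chr12:110909258-110913909 had a low, median and high of 1.22, 1.87 and 2.04 in wild-type SMG and of 2.34, 2.92 and 3.20 in TH-MYCN SMG, so the groups did not overlap (difference 1.03, SE 0.14). A forward probe of chr12:110845020-110850870 differed by 2.18 (SE 0.26), from a median of -3.78 to one of -1.52. A single forward probe of chr12:110738120-110769295, detected on no wild-type SMG array and on all 8 TH-MYCN SMG arrays, was at least 9.87-fold higher. The 4 other forward probes of this name did not pass the detection filter and differed by -0.15 to 0.18.

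In primary spheres 43 of 66 tested members of this run were lower than in TH-MYCN SMG and 5 were higher, a split that became 27 and 21 with normexp. The probe of chr12:110909258-110913909 then had a median of 2.11 in primary spheres and 1.81 in passaged spheres. In passaged spheres only 3 of 59 tested members were called, all lower and all on the reverse strand of chr12:110738120-110769295. Meg3 and Mirg, annotated long noncoding RNAs of the imprinted cluster, were measured by probes of their own. By the Meg3 probe used, Meg3 was 0.66 higher in TH-MYCN SMG and 0.80 lower in primary spheres than there, while of its other probes 1 was higher in TH-MYCN SMG and 1 was not called. Mirg was 0.91 higher and 0.47 lower. These comparisons share the TH-MYCN SMG arrays.

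**Figure D4:**
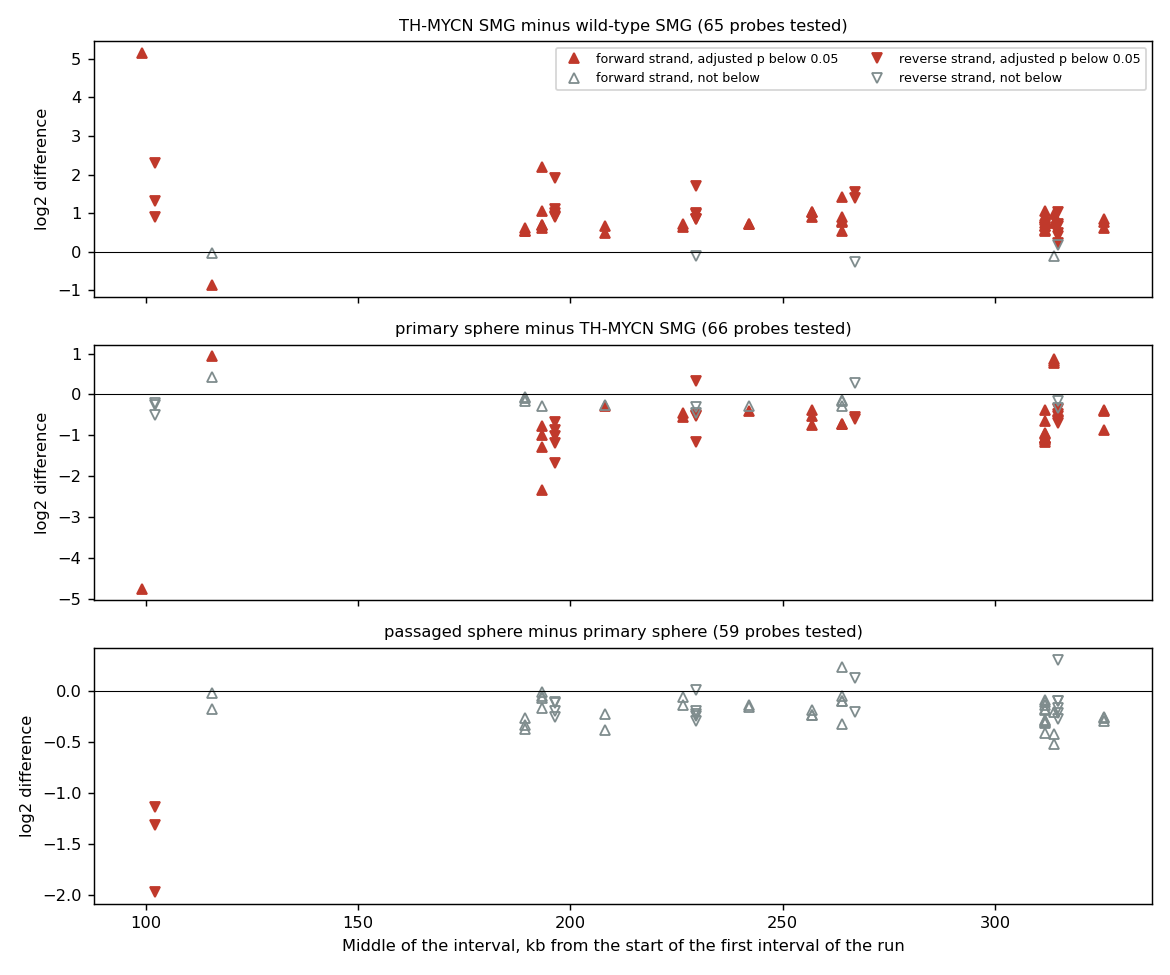
Log2 difference of each tested probe of the run of 14 intervals on chromosome 12 in the 3 comparisons, against the middle of its interval in kb from the start of the first interval of the run. Triangles point up for the forward and down for the reverse strand, and filled symbols have an adjusted p under 0.05: 59 were higher and 1 lower in the top panel, 43 lower and 5 higher in the middle panel and 3 lower in the bottom panel.

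Runs called lower in TH-MYCN SMG lay on other chromosomes. In chr8:122712014-123008463, with 14 intervals, 28 of 42 tested members were lower and 0 higher, with a median of -0.82 over those called, and none was called higher under any scaling tried, where 21 to 37 were lower. In chr6:30983012-31293337 24 of 28 tested members were lower and 1 was higher, with a median of -1.02 over those called lower. With the 1 member that no TH-MYCN SMG array detected at its bound, this median was -0.996. Runs of the other direction were chr4:129376440-129533954, with 22 of 26 higher and 1 lower, and chr16:43623175-43642715, with 21 of 26 higher and 1 lower. With normexp 13 and 14 were higher there and 3 and 1 lower.

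For 1067 intervals the array carries probes to both strands, which allows the strands to be set side by side by their differences. In wild-type SMG 464 of these intervals had a probe detected on all arrays on both strands and 419 on 1 strand only. The counts were 425 and 426 in TH-MYCN SMG, 472 and 414 in primary spheres and 350 and 438 in passaged spheres. In the first comparison both strands were called without internal conflict in 256 intervals, both higher in 66, both lower in 117 and in opposite directions in 73. In 14 of these 73 each strand had at least 2 called probes, a cut set after the values were seen. With equal group medians 5 of the 14 still were opposite, and with normexp 3.

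The forward strand of chr17:95150800-95180650 stayed opposite to its reverse strand under each of these settings. A forward probe ran from -1.92 to -0.96 in wild-type SMG, with a median of -1.44, and from 1.41 to 3.55 in TH-MYCN SMG, with a median of 2.90 (difference 4.17, SE 0.26). The other called forward probe differed by 2.70, and the 5 called reverse probes by -0.78 to -0.52. Of the reverse probes, 1 ran from -0.69 to -0.32 in wild-type SMG and from -1.75 to -0.91 in TH-MYCN SMG, without overlap (difference -0.71, SE 0.11). In primary spheres both called forward probes were higher again, by 1.36 and 1.35, and 3 reverse probes lower again, by 0.69 to 1.80. The probe with 1.80 had a primary sphere median of -6.58, where no detected probe of any array lay below -6.11, so 1.80 is no measured size. In that comparison the strands stayed opposite with equal medians but not with normexp.

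At chr6:112552041-112560067 all 5 called reverse probes were higher in TH-MYCN SMG, by 1.46 to 2.57, and all 5 called forward probes were lower, by 0.27 to 0.38. A reverse probe ran from -3.69 to -2.92 in wild-type SMG and from -1.66 to -0.10 in TH-MYCN SMG, and a forward one from 4.08 to 4.34 and from 3.81 to 4.03. With equal medians and with normexp this interval was no longer opposite. At chr9:27148989-27155714 the 2 called reverse probes rose by 2.68 and 4.82 and the 4 called forward probes fell by 0.97 to 1.18. The reverse probe with 2.68 reached at most -7.55 in wild-type SMG, where no detected probe of any array lay below -6.11, so 2.68 is no measured size. The forward probe with 1.18 had a TH-MYCN SMG median of -6.47, where no detected probe of any array lay below -6.15, so 1.18 is no measured size either. This interval stayed opposite with equal medians but not with normexp.

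The second comparison sets primary spheres against the TH-MYCN SMG. The groups were hybridised on different slides, so slide, culture and any other difference in handling cannot be told apart. Of 7907 interval probes tested, 5803 were called, 4413 higher and 1390 lower in primary spheres, where 79.8% of all 35423 tested probes were called, 54.2% higher and 25.7% lower. The median difference was 0.48 over the tested interval probes and 0.40 over all tested probes, and 4290 interval probes lay above the latter. With equal medians 2325 were higher and 2215 lower, and with normexp 6477 were higher and 641 lower. Over all tested probes these counts were 11602 and 13032 with equal medians and 24195 and 6412 with normexp. At least 2-fold differences were found in 1500 interval probes upward and 752 downward, where 19.1% and 16.1% of all tested probes passed. These counts became 574 and 1084 with equal medians and 1036 and 237 with normexp. Those of all tested probes were then 2579 and 7379, and 5156 and 2990. With at least 2 probes of a name past 2-fold, 330 names were higher and 179 lower, a direction that turned to 121 and 261 with equal medians and was 206 and 49 with normexp.

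The largest rises were 2 neighbouring intervals of chromosome 1. Of the 6 probes of the reverse strand of chr1:42689799-42749799, 4 were tested and called higher. In the probe with the largest difference wild-type SMG levels had a median of -7.36, TH-MYCN SMG levels ran from -6.53 over -3.31 to -1.65, and primary sphere levels from 2.28 over 2.42 to 3.54, with no overlap (difference 5.99, SE 0.56, n = 8 and 8, adjusted p = 4.23e-08 by limma). The passaged cultures had 1.83, 1.45, 3.15 and -0.61, so culture 4 stood lowest. The other called probes differed by 5.86, 5.07 and 0.96. The forward strand of chr1:42758928-42771337 was not detected on any TH-MYCN SMG array by a probe that was detected on every primary sphere array, at least 13.0-fold higher, and its other called probes rose by 4.94 and 2.80. Passaged culture 4 was lowest there as well, at -4.94, against -2.73, -1.95 and -1.33 in cultures 1 to 3.

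Other rises had full support within the name. All 5 probes of the forward strand of chr8:59994074-60002058 were higher in primary spheres, by 2.40 to 4.39. The first of these ran from -7.66 to -6.06 in TH-MYCN SMG, where no array detected it, and from -2.74 to -2.12 in primary spheres, at least 9.03-fold higher, and was between -2.58 and -2.11 in the passaged cultures. All 3 probes of the forward strand of chr13:98267049-98267604 rose by 3.87 to 4.53, and all 4 of the reverse strand of chr10:9322308-9332183 by 1.46 to 3.88. The interval of chromosome 19 that was undetected in wild-type SMG rose by another 2.55 to 2.71 in its 5 probes, and that of chromosome 17 by 1.06 to 1.28 in its 3. The interval of chromosome 2 fell by 1.98 to 2.07 in its 3 probes. In 2 of them every primary sphere lay above every wild-type SMG sample, and in 1 the groups overlapped, with a lowest primary sphere at -5.88 and a highest wild-type SMG level of -5.64.

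Falls were larger than rises. The 3 probes of the forward strand of chr5:26333765-26338143 fell by 8.28, 7.52 and 7.29. The first ran from 2.62 to 3.13 in wild-type SMG and from 1.53 to 2.64 in TH-MYCN SMG, with a median of 2.12. In primary spheres it was detected on no array and lay between -6.71 and -5.58, and in the passaged cultures it was at -7.05, -6.96, -5.19 and -6.61, again undetected. It was at least 182-fold lower in primary spheres (fitted difference -8.28, SE 0.21, adjusted p = 1.95e-15 by limma), the largest bound among interval probes in any comparison.

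Overlapping and neighbouring intervals on chromosome 1 fell too. The reverse strand of chr1:175705225-175717250 fell in all 5 probes. No primary sphere array detected 4 of these, which were at least 7.13-fold to at least 55.8-fold lower, and the last fell by 2.64. The reverse strands of chr1:175653557-175671940 and chr1:175654606-175672031, which overlap, fell in 3 and 5 probes. All 3 probes of the former were undetected on primary sphere arrays and at least 11.2-fold to at least 26.1-fold lower, and so were 4 of the latter, with bounds of 4.65-fold to 20.8-fold. In the first of these, levels ran from -1.23 to -0.22 in TH-MYCN SMG and from -7.82 to -6.19 in primary spheres. The forward strand of chr5:14921737-14978834 fell in all 3 probes, which no primary sphere array detected, by at least 19.3-fold to at least 34.3-fold, and the only probe of the forward strand of chr10:93819821-93976621 was at least 32.3-fold lower. The probes of chr3:106858397-106896812 and chr4:98943050-98959998 that had risen in TH-MYCN SMG differed by -6.48 and -6.45, with primary sphere medians of -4.62 and -1.98 where the wild-type SMG medians were -4.55 and -1.55.

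From every TH-MYCN SMG array to no primary sphere array, 152 interval probes of 108 names lost detection (0.939%), against 970 of the other probes (2.46%), and 28 of the names had at least 2 such probes. In the other direction 48 interval probes (0.296%) and 56 other probes (0.142%) gained it. Markers of non-neuronal cells were lower in the same comparison. All 8 glial, 7 of 7 macrophage, 7 of 7 fibroblast, 5 of 6 endothelial, 4 of 4 erythroid, 5 of 5 smooth muscle and 4 of 4 adipocyte markers fell in primary spheres, and 1 endothelial marker rose. Summed macrophage levels were 4.67 to 5.66 in TH-MYCN SMG and -0.41 to 0.37 in primary spheres, where 2 of the 7 markers were undetected on all arrays. Summed fibroblast levels were 7.46 to 7.76 and -1.24 to 3.10, with 1 of 7 undetected on all primary sphere arrays, and summed glial levels 5.77 to 6.34 and 1.09 to 3.51, with 2 of 8 undetected. All 8 cell division markers were higher, with summed levels of 7.62 to 7.80. The summed level of the neuron markers, given above, was also lower in every primary sphere than in every TH-MYCN SMG sample. The part of any of these cell types in the interval levels was not tested.

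The run with the most members called lower after that of chromosome 12 was chr13:28477490-28985604, with 13 intervals. Of 34 tested members 30 were lower in primary spheres and 2 higher, with a median of -3.02 over those called lower, and with normexp 20 were lower and 10 higher. No primary sphere array detected 16 of the 30, and with these at their bounds the median was -2.24. All 30 were on the reverse strand. A reverse probe of the interval chr13:28477490-28985604 rose instead, from a mean of 2.87 there to one of 4.24 in primary spheres, so probes of 1 name moved in opposite directions. In chr2:174787150-175701875 26 of 35 tested members were lower and 0 higher, which turned to 14 lower and 16 higher with normexp. Upward runs were chr17:6265275-6615425, with 26 of 29 tested members higher and 0 lower, chr1:138442536-138632310, with 23 of 29 higher and 1 lower, and chr16:89961600-90127636, with 23 of 30 higher and 3 lower. With equal medians 15 were higher in the first of these 3 and 4 in the second. Over the chromosomes, 45.7% (chromosome 2) to 66.2% (chromosome 10) of the tested interval probes were higher in primary spheres.

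Both strands were called without internal conflict in 398 intervals, both higher in 315, both lower in 21 and opposite in 62, of which 14 had at least 2 called probes on each strand. At chr6:129151512-129208737 all 8 called reverse probes fell, and the 2 called forward probes rose by 1.04 and 0.85. No primary sphere array detected 7 of the reverse probes, whose bounds were 1.76-fold to 19.6-fold. A reverse probe ran from -1.92 to -0.48 in TH-MYCN SMG and from -7.64 to -6.05 in primary spheres, and a forward one from -1.76 to -0.78 and from -0.41 to 0.26. With equal medians and with normexp the strands no longer met this condition. Of the 14, 4 still were with equal medians and 2 with normexp.

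The last comparison sets the 4 passaged cultures against the 8 primary ones. Of 7056 interval probes tested, 344 were called, 174 higher and 170 lower, where 6.93% of all 31999 tested probes were called, 2.83% higher and 4.09% lower. The median difference was 0.06 over the tested interval probes and 0.02 over all tested probes. At least 2-fold differences were found in 6 interval probes upward and 76 downward, where 0.144% and 1.62% of all tested probes passed, and with normexp these counts were 0 and 2. The upward count was 19 without passaged culture 1 and 27 against the primary spheres of slide 4 only. With no filter on dim probes 782 were higher and 101 lower, and of all probes 2077 and 688. The count of 344 rested on single cultures: it was 138 without passaged culture 4, 179 without passaged culture 2 and 226 without primary sphere 4. Within slide 3 it was 247 and within slide 4 it was 126. It was 207 with normexp, of which 159 were higher and 48 lower, and 4616 when dim probes were not filtered out, of which 4305 were higher. Of all probes 1361 were called with normexp, 728 of them higher, and 14640 without the filter, 12561 of them higher.

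The rises were led by the reverse strand of chrX:50407969-50410370, which rose in all 3 probes by 1.69, 1.61 and 1.56. In the first, primary sphere levels ran from -5.58 over -4.83 to -4.28 and the passaged cultures had -3.74, -2.45, -3.00 and -3.25, all above every primary sphere (SE 0.26, n = 4 and 8, adjusted p = 0.00337 by limma). The medians of the SMG groups were -5.66 in wild-type and -5.03 in TH-MYCN SMG. The reverse strand of chrX:50400250-50410825, which contains that interval, rose in the only tested probe of 6, from a primary sphere median of -3.63 to -2.34, -2.09, -1.84 and -1.52 in the passaged cultures. Its SMG medians were -2.20 and -2.34. Both probes of the reverse strand of chr5:77084398-77086144 rose, by 0.97 and 0.93. In 1 of these probes the medians were -4.31 in wild-type SMG, -2.24 in TH-MYCN SMG and -1.41 in primary spheres, and the passaged cultures ran from -0.76 to -0.18. The reverse strand of chr6:50339188-50409363 rose by 0.77 and 0.73 in its leading probes, with 3 further probes called.

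The falls were larger. The largest called one, a reverse probe of chr13:19611679-19620954 with a fitted difference of -3.72 (SE 0.63, adjusted p = 0.00599 by limma), lies outside the rule for named probes and was picked after its value was seen. It was detected on 7 of 8 primary sphere arrays, where it ran from -5.54 to -0.99, and on no passaged sphere array, and was at least 3.98-fold lower. All 5 probes of the reverse strand of chr7:128341797-128414692 fell by 1.73 to 2.72, after a fall of 3.34 to 3.80 from TH-MYCN SMG to primary spheres. The first ran from 1.64 to 1.87 in wild-type SMG, from 1.29 to 1.57 in TH-MYCN SMG and from -2.48 to -1.51 in primary spheres, and was at -3.80, -5.62, -3.74 and -5.49 in the passaged cultures, below every primary sphere (difference -2.72, SE 0.35, adjusted p = 0.00137 by limma). Only 5 of the 8 passaged sphere arrays detected this probe, so -2.72 rests in part on undetected signals. The forward strand of chr3:90425270-90435820 fell by 2.49 in its leading probe, and 3 of its 4 other probes were called too.

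All 3 probes of the reverse strand of chr3:30077338-30080281 fell, by 2.07 to 2.27, and that of chr3:30059174-30060808 in all 3, by 1.37 to 1.78. The probe of the former with the largest fall ran from -2.92 to -2.39 in primary spheres and was at -3.38, -5.07, -4.60 and -6.58 in the passaged cultures. Both lie in the run chr3:30032959-30133959, where 13 of 15 tested members were lower and 0 higher, with a median of -1.48 over those called. No passaged sphere array detected 2 of the 13, and with these at their bounds the median was -1.32. With normexp 3 were lower, within slide 3 4 and within slide 4 2. The 3 probes of chr3:30077338-30080281 were higher in TH-MYCN SMG than in wild-type SMG, by 1.40 to 1.53. A forward probe of chr10:72559397-72946868, detected on no SMG array and on every primary sphere array, fell by 2.23 and was detected on 1 of the 8 passaged sphere arrays. The reverse strand of chr4:54669012-54940960 fell by 1.89 to 2.72 in 3 probes, but passaged culture 1 lay within the primary sphere range of the first. Only 2 of the 8 passaged sphere arrays detected the probe with 2.72, so that value rests largely on undetected signals.

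The run with the most members called higher in passaged spheres was chr14:62254361-62308286, with 12 of 20 tested members higher and 0 lower and a median of 0.47 over those called. This count was 4 with all 4 groups in one fit, 4 with the replicate number as a block and 7 within either slide. A reverse probe of chr14:62263564-62308286 had means of -4.53 in wild-type SMG, -2.59 in TH-MYCN SMG, -1.55 in primary spheres and -1.09 in passaged spheres. In chr17:39960567-39992817 10 of 20 tested members were higher and 0 lower, but 0 were with all 4 groups in one fit, 6 within slide 3 and 1 within slide 4. Both strands were called in 10 intervals, both higher in 4, both lower in 5 and opposite in 1. Of the 6 measurable glial markers 1 was lower in passaged spheres, and of the 8 cell division markers 1 was higher.

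Probes of the same interval and strand can be used to see how far a name's probes report the same change. Among 2009 names with at least 2 tested probes in the first comparison, 476 had at least 2 called higher and none lower, 486 at least 2 called lower and none higher, and 110 had calls in both directions. In the second comparison, of 2019 names, these counts were 1041, 302 and 144, and in the last, of 1805 names, 32, 37 and 1. Across names, which are not independent replicates and share their arrays, the differences of the first and second tested probe had a Pearson correlation of 0.57, 0.69 and 0.62 and a Spearman correlation of 0.67, 0.66 and 0.48 in the 3 comparisons. Across intervals with both strands tested, the forward and reverse differences had a Pearson correlation of 0.22, 0.23 and 0.33 (665, 666 and 601 intervals).

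**Figure D5:**
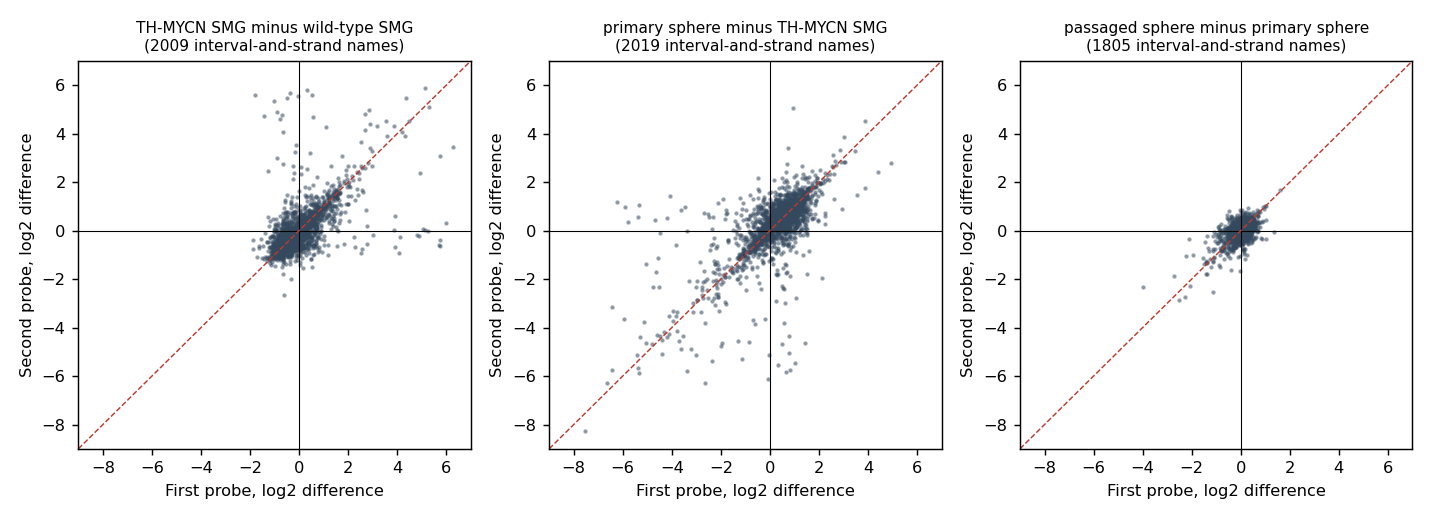
Log2 difference of the second against the first tested probe of each interval and strand in the 3 comparisons (2009, 2019 and 1805 names), with the line of equal values dashed. The points spread along the line, and some lie along the axes, where 1 probe differed by several units and the other by little.

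Annotated long noncoding RNA genes gave a reference with known names. Of 41 on a list, 23 had a probe matched by accession, and 19, 19 and 18 were tested in the 3 comparisons. In TH-MYCN SMG 10 were higher and 4 lower than in wild-type SMG. The rises included Mir17hg, the host of the miR-17-92 microRNAs, by 2.73, Snhg1 by 1.35 and Snhg5 by 1.36, both hosts of small nucleolar RNAs, and Dancr by 1.38. Neat1, the scaffold of nuclear paraspeckles, was 0.55 lower. In primary spheres 13 were higher and 5 lower than in TH-MYCN SMG, with Neat1 lower by 4.67 and Snhg18 by 4.95, and Snhg1 and Snhg5 higher by 1.62 and 1.65.

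Pantr1, a long noncoding RNA known from neural progenitors, was higher in TH-MYCN SMG, where 7 of 8 arrays detected it and its median was -3.48, than in wild-type SMG, where no array did. It was 6.14 higher again in primary spheres, where it ran from 2.29 to 3.54. It differed by -1.07 in passaged spheres, which was not called (adjusted p = 0.22 by limma). Between passaged and primary spheres 0 of 18 were higher and 1 was lower, Malat1, an abundant nuclear RNA, by 0.33.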

How the data were processed

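RNA from 32 one-colour Agilent arrays was labelled from 40 or 200 ng, per the labels' protocols. The labels do not say which samples had which amount, so whether it differed between the compared groups is not known. The authors deposited scanner output of Feature Extraction 11.5.1.1, whose processed signal intensity is background-corrected per the file headers, and a table of log2 values that the authors made from the same arrays. Of that table's values 99.9% equalled the scaled intensities within 0.05, and it served as an alternative. Control spots and outlier spots (109 to 211 per array) were left out, spots of a probe were averaged, and the log2 of the processed signal was set against each array's 75th percentile. The number of arrays limits the precision.

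Probes detected in at least 4 samples of the compared groups were fitted with limma 3.58.1 in R 4.3.3 (lmFit and eBayes, Benjamini-Hochberg over all probes tested). On simulated data, 82% of 2-fold changes were recovered between the SMG groups, 80% between primary spheres and SMG and 74% between the sphere groups. Of the simulated calls 3.92%, 7.19% and 5.66% were false. Only 50 probes were changed at each size, far fewer than were called in the real data, so these shares need not hold there. Named intervals are the 10 largest differences in each direction among probes called in every fit that leaves out 1 sample and detected on all arrays of the brighter group, the 5 largest bounds among probes detected on all arrays of 1 group and none of the other, and the 3 runs with the most called members. Items outside this rule (the 42 largest rises and their division, opposite strands, intervals drawn) were chosen after their values were seen. Members and lists were chosen with earlier results of these data known. Named genes were matched by accession to RefSeq symbols (GRCm38.p6). Some members picked by this rule are not reported here.

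Alternatives were quantile normalization, equal group medians, normexp background correction with offset 50, other filters, slide or replicate number as a block, and leaving out each sample.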

Additional observations from a re-analysis of the deposited data

Results flagged for a closer look

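Of 60 groups of values examined, 3 held a sample set apart from the rest by Dixon's criterion, where chance marks about 1 in 20. For the reverse strand of chr17:34018371-34019394, TH-MYCN SMG 4 was lowest at -2.95, with the other 7 samples from -0.86 to 0.92. For the reverse strand of chr1:42689799-42749799, primary sphere 8 was highest at 3.44, with the others from 2.08 to 2.65. The share of interval probes detected was highest in wild-type SMG 2, at 49.6%, with the others from 42.0% to 44.9%.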

How the results depend on the processing

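The counts of called interval probes stayed within 1.5 times in the first and second comparison under every alternative run. Between passaged and primary spheres, 344 became 207 with normexp, 4616 with no filter on dim probes and 126 within slide 4 (an alternative chosen after seeing the data), and leaving out 1 sample gave 138 to 426. Of the 23 probes named there, 12 lost their call under some alternative, 6 with normexp, 5 with the replicate block and 7 within slide 4, and none changed direction. With the softer detection flag (positive and significant), 8321 interval probes were detected on all TH-MYCN SMG arrays and 7042 on all passaged sphere arrays, and intervals detected on 1 strand only numbered 277 in wild-type ganglia, 276 in those of TH-MYCN mice and 257 in primary spheres. Same-numbered samples were not paired in the main fits, whose p-values therefore leave out any link between them. Their deviations from the group mean correlated by a median of 0.33, 0.08 and 0.13, with 7 of 8, 2 of 8 and 2 of 4 pairs over 0.1. For other-numbered samples the medians were -0.07, -0.02 and -0.02, and 5 of 8, 1 of 8 and 3 of 4 samples correlated best with their own number. With the replicate number as a block 4963, 5908 and 283 were called. The causes were not tested.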
